A study of Mus musculus with 10 samples.

Results

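Neuropeptide transcripts of the forebrain were followed here on dual dye arrays of mouse hemibrain. The set held 10 named genes, Npy, Sst, Vip, Cck, Tac1, Tac2, Crh, Cort, Cartpt and Nts, chosen by name and not by any measured value. A probe belonged to the set when its RefSeq accession led to one of these symbols. That rule found 9 probes for 8 of the 10 genes, among 18539 genes that could be named on the array. No probe was matched to Crh or Tac2 by accession, so neither is analysed here. Whether the array reads them under other names or accessions was not checked. Cartpt was read by 2 probes and each of the other genes by 1.

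Neuropeptides are cut from larger precursor proteins, packed into dense core vesicles and released alongside the fast transmitters. Most act through G protein coupled receptors, over longer distances and times than a synapse does. In the cortex and hippocampus Npy, Sst, Vip and Cort mark groups of GABAergic interneurons, while Cck is made by some interneurons and by many excitatory neurons. Tac1 is the substance P precursor and is best known from a class of striatal projection neurons. Cartpt and Nts are widely used in the hypothalamus, in the ventral striatum and in the amygdala.

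Each array carried, in Cy-5, RNA from the left hemibrain of 1 mouse, a C57BL/6J male, and another RNA in Cy-3. The mice came to the study at 3 weeks of age, ate either a diet enriched in n-3 PUFA from fish oil (FD) or a standard lab diet (SD) for 20 weeks, and were 5 months old at the end. The sources contradict each other on the diets. The methods describe FD-fed and SD-fed mice set against a commercial reference RNA, the sample labels enter FD for every Cy-5 channel and SD with a pooled hemibrain source for every Cy-3 channel, and the descriptions call every sample a control. The diet of an array was therefore not assigned, FD was not compared with SD, and the 10 arrays are named by animal and given one by one or by their lowest, median and highest value. A hemibrain mixes every forebrain region with the rest of that hemisphere, so a level is an average over many cell types. In such tissue fewer cells of a type and less RNA per cell cannot be told apart.

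The arrays held 41174 probes apart from controls. They came from 4 slides, of which 2 gave 4 arrays to this series and the others 1 each. C10-434 was the dim array, with a median background-subtracted Cy-5 signal of 28.5 against 60.0 to 171 on the other arrays. A probe is called detected in a dye where the software's flag sets it well above background. On C10-434 50.4% of spots were detected in Cy-5, against 68.9% to 77.5% elsewhere. Of the neuronal markers 8 of 8 were detected in Cy-5 on every array, as were 8 of 8 oligodendrocyte and 8 of 8 astrocyte markers, while the pituitary list reached this in 2 of 7 genes.

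Many neuropeptide genes are textbook targets of the cAMP response element, to which CREB binds. The letters TGACGTCA (a palindrome, so the same on both strands) were searched for in the 250 bases before each gene start in RefSeq promoters of build GRCm38.p6. They stood in the windows of Sst and Cartpt, among 9 neuropeptide genes that the promoter table held and in 1.55% of all 32851 promoters. The shorter letters TGACG, read on both strands and including those inside the full element, stood in 7 of the 9 windows and in 17.8% of all promoters. The sequences below show the full element of Sst and Cartpt and the shorter match of Vip, Cck and Tac1, because these genes are the ones described most closely here. They run 5′ to 3′ on the strand of the gene, with the matched letters in capitals.

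Sst, chr16:23890859-23890918, minus strand: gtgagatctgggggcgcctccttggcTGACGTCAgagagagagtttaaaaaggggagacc

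Cartpt, chr13:99900762-99900821, minus strand: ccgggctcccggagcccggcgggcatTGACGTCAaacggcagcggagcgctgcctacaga

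Vip, chr10:5639113-5639169, plus strand: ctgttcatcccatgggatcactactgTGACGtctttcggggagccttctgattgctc

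Cck, chr9:121495711-121495767, minus strand: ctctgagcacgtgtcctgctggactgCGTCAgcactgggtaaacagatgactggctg

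Tac1, chr6:7554992-7555048, plus strand: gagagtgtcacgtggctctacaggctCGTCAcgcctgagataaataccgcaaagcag

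The element began 48 bases before the gene start in Sst and 112 bases before it in Cartpt. Npy and Tac2 had neither set of letters in this window. A match is a description of the letters and not of a bound site. No binding or activity was measured on these arrays.

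Forebrain neuropeptide transcripts were far more abundant in the hemibrain RNA than in the RNA of the Cy-3 channel. Of the 8 genes measured, 7 had a log2 Cy-5/Cy-3 above 1 on all 10 arrays and 0 had one below -1 on all 10. Over all 17665 genes with a value on every array, 16.2% were above 1 on all 10 and 15.6% were below -1 on all 10. Cort, the exception, stayed above 0 on all 10 arrays, as did 32.0% of all genes. The median ratio over the 8 genes was 4.80 on the log2 scale, against 0.08 over all genes. All 8 were detected in Cy-5 throughout, which held for 65.7% of all genes, and 5 of 8 in Cy-3, against 72.9%. The count of 7 was 2, Sst and Cck, under another processing (normexp on the median signals, offset 50, then loess). That processing put C10-413 at 0.15 to 0.86 for the other genes. Without C10-413 the count was 6 under it. It changes signal, background and dye normalization together, so the drop is not credited to 1 step.

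**Figure D1:**
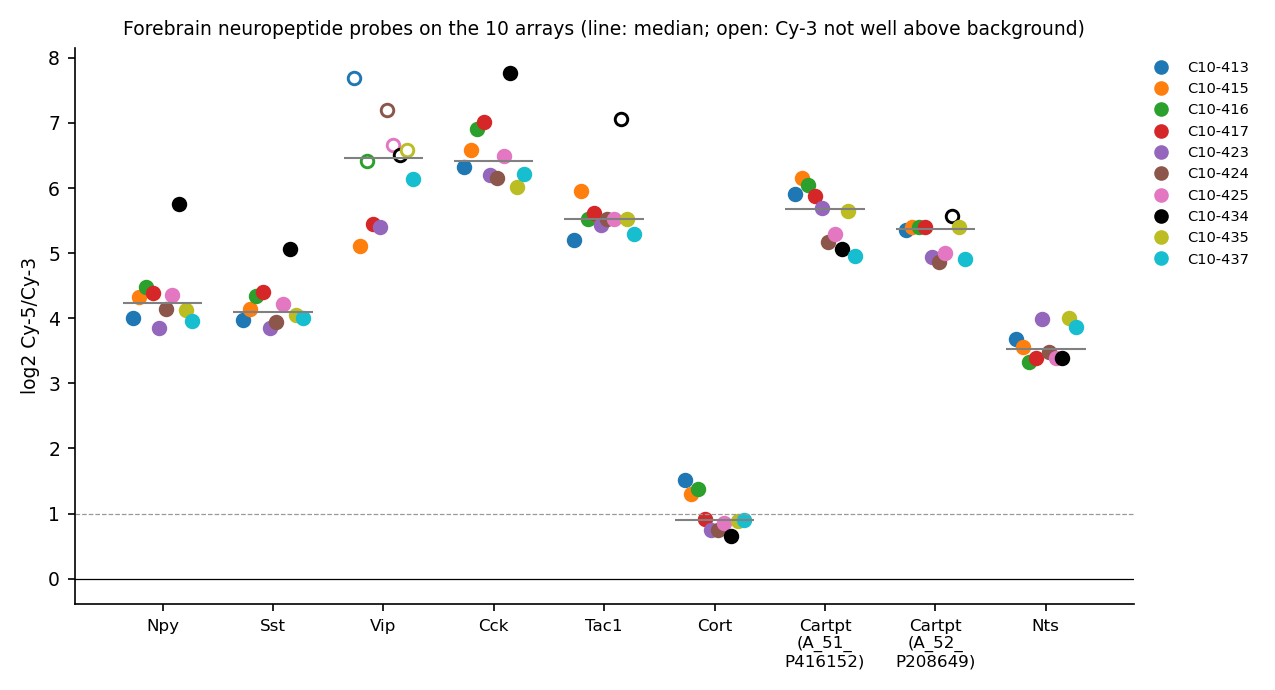
The log2 ratio of Cy-5 (hemibrain) to Cy-3 is plotted for each of the 9 probes, with 1 point per array, the median as a line, and open points where Cy-3 was not well above background. Every probe but that of Cort lies above the dashed line at 1 on all arrays, and C10-434 (black) stands above the other arrays for Npy, Sst, Cck and Tac1.

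Among the interneuron peptides, Npy, which damps excitability through its Y receptors and drives feeding from the hypothalamus, had ratios from 3.85 on C10-423 through a median of 4.23 to 5.75 on C10-434. The median stands for an 18.8-fold higher signal in the hemibrain RNA. The other 9 arrays lay between 3.85 and 4.49, and C10-434 was alone above them. Sst, the peptide of dendrite-targeting interneurons and the inhibitor of pituitary growth hormone release, ran from 3.84 on C10-423 through a median of 4.10 to 5.06 on C10-434. Its median was 17.1-fold, and again the other 9 arrays lay close together, between 3.84 and 4.41. The Sst probe was printed many times, with 9 to 10 usable spots per array, and the SD over those spots was 0.033 to 0.173 on the log2 scale. The gap between C10-434 and the next array was thus wider than the scatter between spots of an array.

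Vip, made by interneurons that inhibit other interneurons and by clock neurons of the hypothalamus, had a median of 6.46 on the log2 scale. This was the least well fixed median, since the Cy-3 signal of Vip was well above background on 4 of 10 arrays. On those 4 arrays the ratio was 5.11 (C10-415), 5.44 (C10-417), 5.40 (C10-423) and 6.14 (C10-437). On the other 6 arrays only a lower bound could be given, with Cy-3 set at the lowest signal well above background on that array. The bound ran from at least 22.6-fold higher on C10-434 to at least 107-fold higher on C10-413. With backgrounds subtracted with a floor and an offset of 50, the median was 4.14, so Vip was not placed against Cck. The ratios of these 6 arrays as given, 6.42 to 7.69, were all higher than those of the 4 arrays with a measured Cy-3.

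Cort, a close relative of Sst that binds the same receptors, was the low member. Its ratios ran from 0.66 on C10-434 through a median of 0.90 to 1.51 on C10-413. That median is a 1.86-fold higher signal in the hemibrain RNA. The ratio passed 1 on 3 arrays, C10-413, C10-415 and C10-416, and its Cy-3 signal was well above background on all 10. Sst and Cort thus differed by their Cy-5/Cy-3 ratio on every array, with no overlap between the highest ratio of Cort (1.51) and the lowest of Sst (3.84).

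Cck, a peptide of basket cells and of many pyramidal and thalamic neurons, had ratios from 6.01 on C10-435 through a median of 6.41 to 7.77 on C10-434. The median was 85.1-fold. Both dyes were well above background on all 10 arrays, so that unlike for Vip no bound was needed. Tac1, the precursor of substance P and neurokinin A, ran from 5.21 on C10-413 through a median of 5.52, or 46.0-fold, to 7.05 on C10-434. On C10-434 its Cy-3 signal was not well above background, and the approximate bound there was 68.9-fold. The remaining 9 arrays lay between 5.21 and 5.95.

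Cartpt, an anorexigenic peptide of the arcuate nucleus and of the accumbens, was read by 2 probes. The brighter, A_52_P208649, had ratios from 4.86 on C10-424 through a median of 5.38 to 5.56 on C10-434, where Cy-3 was not well above background. The other, A_51_P416152, ran from 4.96 on C10-437 through a median of 5.68 to 6.15 on C10-415. The medians were 41.5-fold and 51.1-fold, but the probes ordered the arrays differently, and C10-434 was highest for the first and second lowest for the other. Nts, which lowers body temperature and modulates dopamine release, had the narrowest spread over all 10 arrays. Its range of 0.68 was close to 0.71 for the brighter Cartpt probe. Without C10-434 that Cartpt probe (0.54), Sst (0.56) and Npy (0.64) had narrower ranges than Nts (0.68). With backgrounds subtracted with a floor, the range was 0.95 for Nts and 0.69 for Tac1. The ratios of Nts ran from 3.33 on C10-416 through a median of 3.52, or 11.5-fold, to 4.01 on C10-435.

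The error that the scanner software attached to each ratio was large beside these spreads. On the log2 scale it was 0.41 to 0.59 for Npy, 0.41 to 0.52 for Sst, 0.61 to 0.78 for Cck, 0.54 to 0.71 for Tac1 and 0.37 to 0.43 for Nts. It was smallest for Cort, at 0.22 to 0.25, and largest for Vip and Cck. This error describes one spot measurement and not the spread between animals. For Nts the whole range over the arrays, 0.68, was under 2 such errors, so it does not order its arrays. For Npy the step from the next highest array to C10-434, 4.49 to 5.75, was wider than 2 times the largest of them. The same steps of Cck (7.01 to 7.77) and Tac1 (5.95 to 7.05) were under 2 times theirs. The step of Sst (4.41 to 5.06) was too, but it lies between means of 9 to 10 spots with an SD of 0.033 to 0.173. The error of 1 spot is therefore no measure of the Sst step.

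For Npy, Sst and Cck the high ratios of C10-434 came with a low Cy-3 signal and not with a high Cy-5 signal. A level is given here as the log2 signal of a dye minus the 75th percentile of that dye on the array. For Npy the Cy-5 level of C10-434 was 1.84, the third lowest of the arrays, whereas its Cy-3 level of -3.89 was the lowest, well under the next at -2.57. For Cck the Cy-3 level was -2.07 against -1.08, and for Sst it was -0.79 against -0.52. Tac1 had a Cy-5 level of 1.92 on C10-434, inside the range of the other arrays, but no measured Cy-3 level there. With Cy-3 at its approximate bound its log2 ratio was 6.11, against 5.95 on the next array. Nts and Cort showed no such drop, with Cy-3 levels of -2.84 and -0.75 on C10-434 that lay in the upper part of their ranges.

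**Figure D2:**
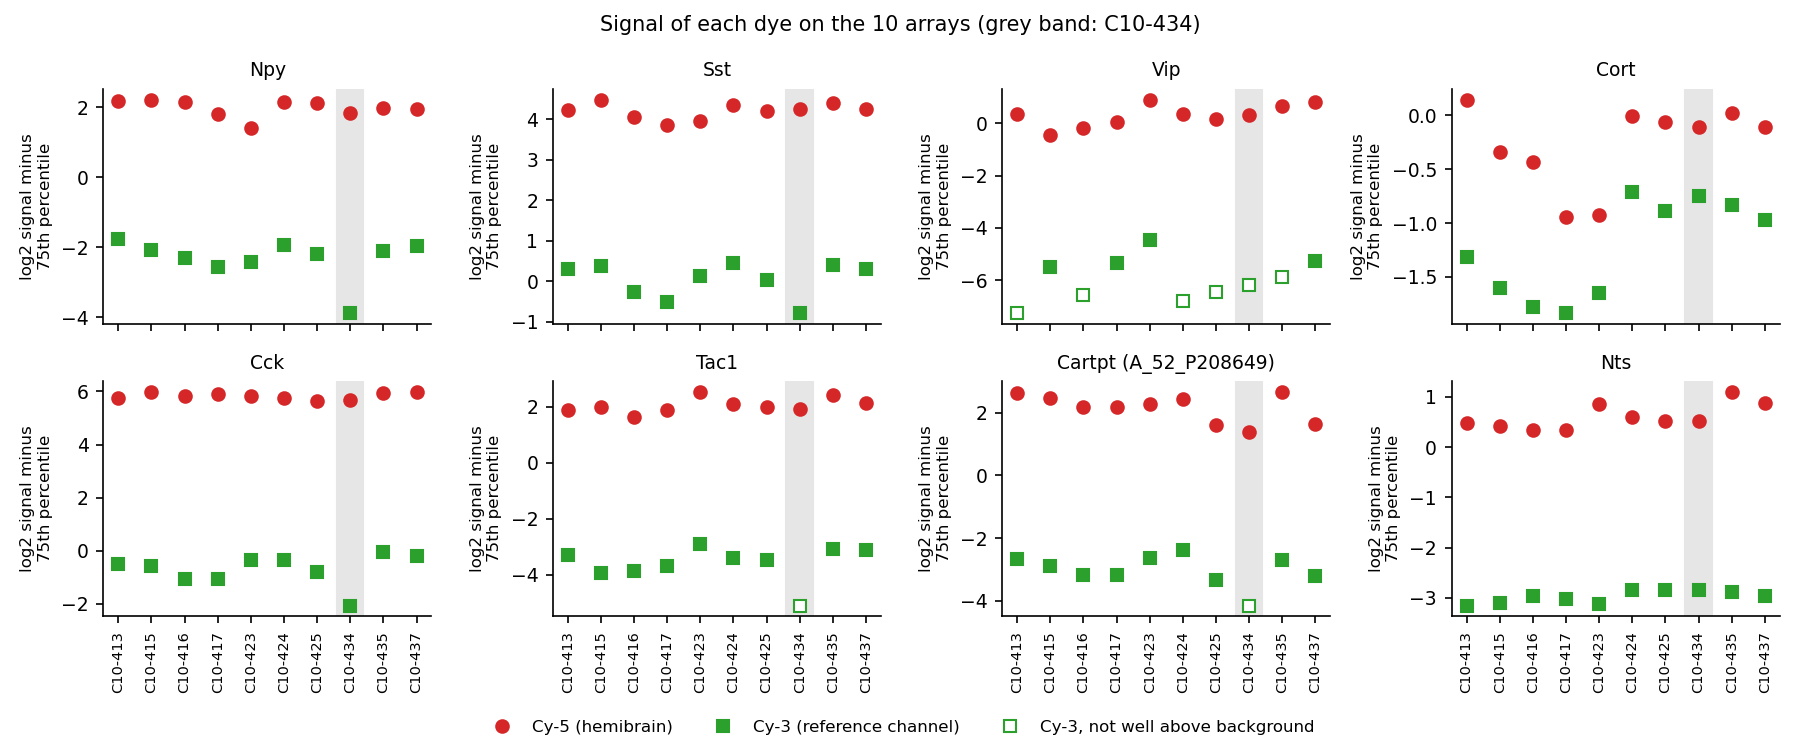
Each panel shows 1 gene with its Cy-5 level (red) and Cy-3 level (green) on the 10 arrays, as log2 signal minus the 75th percentile of the array, on an axis of its own. The grey band marks C10-434, where the Cy-3 level falls under all other arrays for Npy, Sst and Cck. Open squares are Cy-3 signals not well above background, which for Tac1 and Cartpt include C10-434.

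Without C10-434 the range of the ratio fell from 1.90 to 0.64 for Npy, from 1.84 to 0.74 for Tac1, from 1.76 to 1.00 for Cck and from 1.22 to 0.56 for Sst. Many other genes of high ratio had their highest value there too. Among 378 genes with a median ratio above 4 and detected in both dyes on all arrays, 64.8% had their highest ratio on C10-434, against 18.2% of all 10511 genes so measured. Marker lists differed in this. The median deviation of the ratio from the gene medians on C10-434 was 0.97 for the neuronal, 0.77 for the cortical and hippocampal and 0.56 for the astrocyte list. It was 0.21 for the oligodendrocyte, 0.12 for the striatal and -0.14 for the thalamic list. The part of the dim array in these ratios was not tested. When backgrounds were subtracted with a floor and an offset of 50, the ratio of C10-434 was 4.64 for Npy with the next array at 4.25, and 5.15 for Tac1 with C10-435 at 5.14. For Sst and Cck C10-434 remained highest, at 4.99 and 7.45.

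In the hemibrain channel alone, the peptides differed in how much they varied from array to array. Differences between animals cannot be told apart here from those between arrays or slides. Cck was the steadiest, with Cy-5 levels between 5.65 and 5.98. Vip was the most variable, from -0.43 on C10-415 to 0.91 on C10-423, followed among the brightest probes by Cartpt, from 1.39 on C10-434 to 2.66 on C10-435. Cort ran from -0.95 on C10-417 to 0.15 on C10-413, and Sst from 3.86 on C10-417 to 4.49 on C10-415. Each range is read on the scale of its own probe, since the brightness of different probes is not comparable.

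C10-423 stood apart in the Cy-5 level of Npy, which was lowest there, 1.42 against 1.80 to 2.21 on the other arrays. Tac1 (2.52) and Vip (0.91) were highest on this array, but close to the next, 2.40 on C10-435 and 0.81 on C10-437. Cort was low on C10-423 (-0.92) and on C10-417 (-0.95). The list of 8 striatal markers, all detected in Cy-5 on every array, deviated in its Cy-5 level by -0.59 on C10-423, where Tac1 was highest. The oligodendrocyte list deviated by -0.47 there, the thalamic by -0.40, the microglial by -0.30 and the neuronal by -0.27. The blood list, with 3 of 6 genes detected on every array and 2 on none, deviated by 0.52 on C10-423, by 0.83 on C10-425 and by 0.74 on C10-434. Its summed Cy-5 level went the other way on C10-434, where it was lowest (3.71 on the log2 scale). That sum was highest on C10-423 (5.58). The part of these lists in the peptide levels was not tested. Nts was highest on C10-435 at 1.10, followed by 0.87 on C10-437 and 0.86 on C10-423, and lay between 0.34 and 0.60 on the other arrays.

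The 2 slides with 4 arrays each gave the one comparison that could be tested. The first held C10-415, C10-416, C10-417 and C10-423, the second C10-424, C10-425, C10-434 and C10-435. Animals, and possibly diets, differ between the slides as well, so slide and animal cannot be told apart. In limma with Benjamini-Hochberg adjustment over 40858 probes, 31 probes (0.0759%) passed an adjusted p of 0.05 on the ratio, and 0 of the 9 neuropeptide probes did. With an array left out, 18 probes passed without C10-423, 2 without C10-415 and 0 without any of the other 6, and again 0 of the 9. At an unadjusted p under 0.05 there were 4066 probes (9.95%), of which 2 were neuropeptide probes. Vip was higher on the second slide by 1.14 ± 0.29 (SE) on the log2 scale, with an adjusted p of 0.194 in limma. Its 4 arrays of the second slide lay at 6.51 to 7.20 and those of the first at 5.11 to 6.42, but all 4 of the second slide lacked a measured Cy-3. In Cartpt the probe A_51_P416152 was lower on the second slide by 0.65 ± 0.19 (SE), with an adjusted p of 0.244 in limma, while the other probe differed by -0.08 ± 0.21.

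On the Cy-5 level alone, 2690 probes (6.58%) passed between the slides, 2556 of them higher on the second slide and 134 lower, and again 0 of the 9 neuropeptide probes. The nearest was Cort, whose 4 arrays of the second slide, -0.11 to 0.02, lay above the 4 of the first, -0.95 to -0.34. The difference was 0.62 ± 0.20 (SE), in the direction of most probes called, with an adjusted p of 0.123 in limma. At an unadjusted p under 0.05 in limma there were 6955 probes (17.0%), of which 1 was a neuropeptide probe, that of Cort. For the ratio of Cort the slides overlapped, 0.74 to 1.37 on the first and 0.66 to 0.88 on the second. The Cy-3 level of Cort also moved with the slide, from -1.84 to -1.60 on the first to -0.89 to -0.71 on the second. For Npy, Sst, Cck, Tac1 and Nts the slides overlapped in the ratio and in the level.

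**Figure D3:**
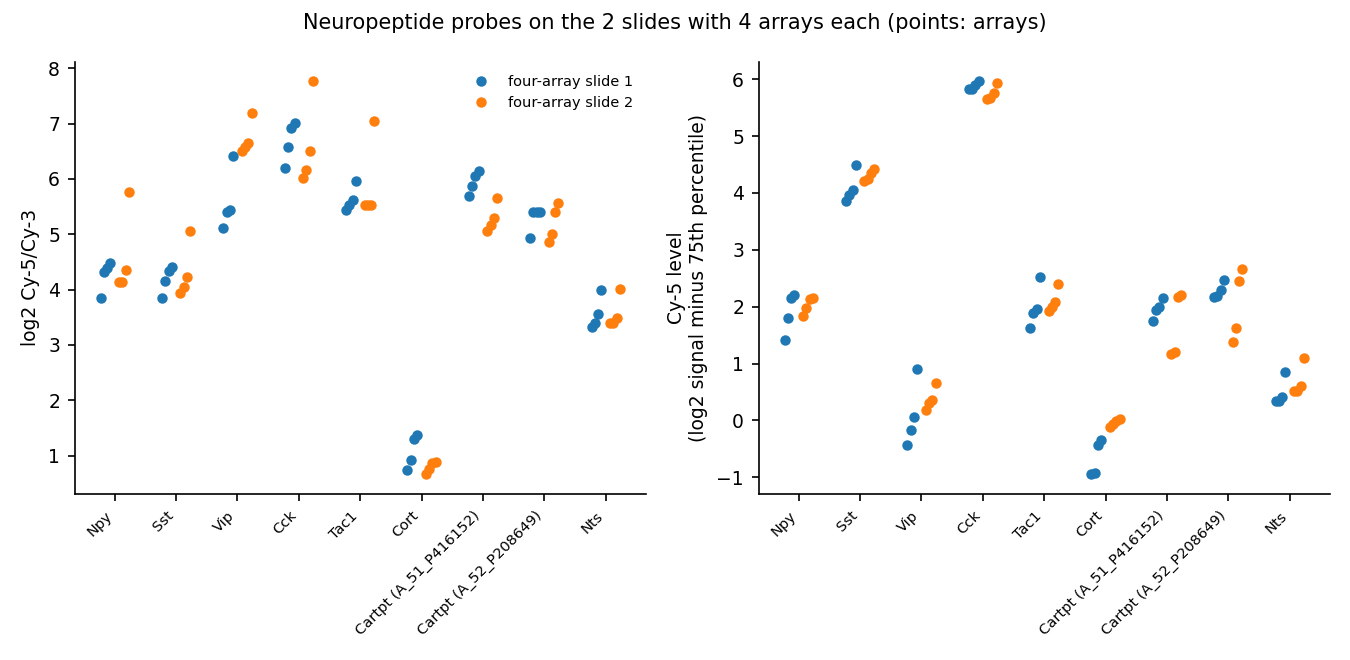
Points are the arrays of the first (blue) and second (orange) 4-array slide, 4 each, for the 9 probes, with log2 Cy-5/Cy-3 on the left and the Cy-5 level on the right. The slides do not overlap for Vip and for Cartpt A_51_P416152 in the ratio and for Cort in the Cy-5 level. The share of all probes without overlap was not counted, and limma called none of the 9 probes in either measure.

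The receptors for these peptides were mixed, with 20 of 22 listed genes matched. Of 19 with a value on every array, 11 had a log2 ratio above 1 on all 10 arrays and 0 below -1, beside the 16.2% and 15.6% of all genes. The median over the 20 matched genes was 2.95. Sort1, the sorting receptor that also binds neurotensin, was highest with a median of 6.40. The brain cholecystokinin receptor Cckbr had a median of 4.68. The somatostatin receptors Sstr1 (0.44), Sstr3 (0.36) and Sstr4 (-0.66, the lowest) stood near 0, beside 4.10 for Sst itself. Sstr1 and Sstr3 were faint, detected in Cy-5 on 9 and 8 of the 10 arrays. The ratios of Sstr1 ran from -0.81 to 1.24, so its median is poorly fixed. Sstr4 was detected in both dyes on all 10.

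The machinery that makes and stores peptides was higher in the hemibrain RNA almost throughout. Of 13 matched genes, 9 had a value on every array. Of these, 8 were above 1 on all 10 arrays and 0 below -1. The median over the 13 genes was 5.72. The priming factor Cadps2 for dense core vesicles had the highest median, 8.39, followed by the prohormone convertase Pcsk1 at 7.59. For both, Cy-3 was not well above background on any of the 10 arrays. With Cy-3 at its approximate bound, their means over the arrays were 6.69 and 5.59 on the log2 scale. The granin Chgb, detected in both dyes on all 10, stood at 7.03. The amidating enzyme Pam, which completes the carboxyl end of Npy, Vip, Cck and substance P, was the exception at -0.43.

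The enzymes and proteins that bind or break down peptides went both ways. Of 7 genes with a value on every array, 2 were above 1 and 3 below -1 on all 10. The median over the 8 matched genes was 0.28. The CRH-binding protein Crhbp stood at 3.98, whereas the peptidases Dpp4, which trims Npy, and Nln, which cleaves neurotensin, had medians of -2.34 and -2.03.

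For comparison, 6 of 10 hypothalamic neuropeptides were above 1 on all 10 arrays and 0 below -1, with a list median of 2.13. Pmch, the melanin-concentrating hormone precursor, reached 8.21, with Cy-3 well above background on 6 of 10 arrays. Gnrh1, made by few scattered neurons, stood at -0.38. Of 11 genes of GABAergic interneuron identity with a value on every array, 10 were above 1 and 0 below -1. The median over the 13 matched genes of that list was 5.17. Gad1, the GABA-synthesising enzyme, had the highest median at 9.68, Pvalb, the calcium buffer of fast-spiking cells, stood at 5.62, and Nos1 was lowest at 0.42. Cy-3 was well above background on 8 of 10 arrays for Gad1 and for Pvalb. Nos1 was detected on 8 arrays in Cy-5 and on 7 in Cy-3. No test set these lists against one another.

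**Figure D4:**
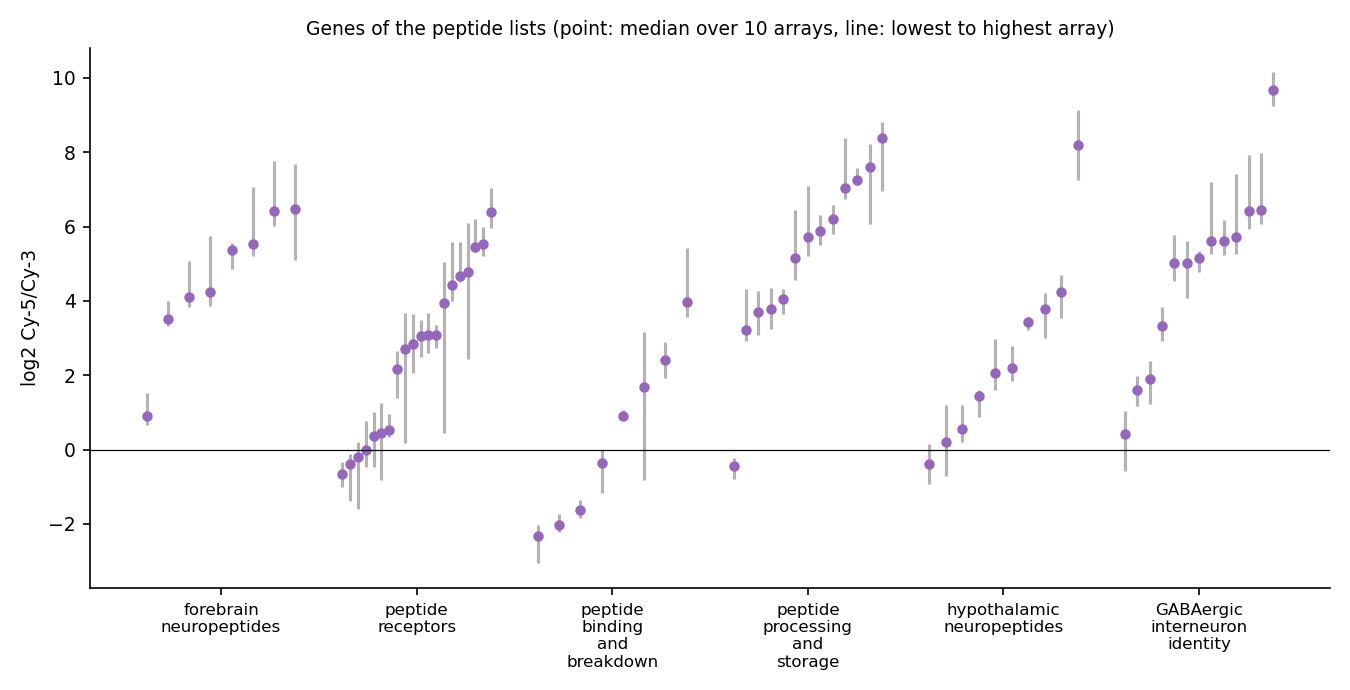
Each point is the median log2 Cy-5/Cy-3 of 1 gene over the 10 arrays and each line its lowest to highest array, in 6 lists, with the genes of a list in order of their median. Nearly all genes of peptide processing and storage and of GABAergic interneuron identity lie above 0, whereas receptors and breakdown enzymes lie on both sides.

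Genes whose ratio followed a neuropeptide most closely over the 10 arrays were sought among 10506 others detected in both dyes on every array. The closest to Npy was the netrin receptor Unc5a, with Pearson r = 0.994, and the closest to Sst was Pcnx2 at 0.988. Cck was followed most closely by the phosphatase Dusp26, at 0.985, and Tac1 by Dbf4, at 0.977. Without C10-434 r was 0.963, 0.953, 0.977 and 0.835 in the same order, and other genes were closest, namely Psd for Npy (0.987), Mmp17 for Sst (0.963), Nefl for Cck (0.983) and Fam167b for Tac1 (0.976). For Vip the closest was Cybc1 (0.944), for Cort Eef1aknmt (0.952), for Cartpt Fam241b (0.872) and for Nts 2610008E11Rik (0.970). Without C10-434 the closest became Utp4 for Vip (0.946) and Arhgdib for Cartpt (0.939), while Cort and Nts kept theirs. The ratios of Vip include 6 arrays on which Cy-3 was not well above background. The points share dye, slide and array brightness, and each gene is the best of many, so these values describe the arrays and no test was made.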

How the data were processed

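Hemibrain RNA (Cy-5) was hybridized with another RNA (Cy-3) on 10 Agilent 4x44k arrays. Per the file headers, the authors extracted the spots with Feature Extraction 10.10.1.1. The deposited signals are linear intensities, which that software had background corrected and dye normalized. The deposited log ratio of a spot and its error are on a log10 scale and were turned to log2. The authors also deposited a table of log2 ratios per probe, which correlated with the log ratios at 0.997 or more on each array. These log2 values were used as an alternative.

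The ratio was the log2 of the processed Cy-5 signal over the processed Cy-3 signal, without control spots or spots flagged as outliers, averaged over the spots of a probe. A probe was called detected when a share of 0.5 or more of its spots had the flag for well above background. No spot was saturated. For each gene the probe with the highest mean Cy-5 signal was taken. Probes were named through RefSeq transcripts of assembly GRCm38.p6, whose coordinates were not used for probes, and 27198 of 41174 matched. The number of arrays limits the precision.

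The arrays' diets were unsettled, so no test treated arrays as replicates of a diet, and p-values between slides measure only the spread between these arrays. Slides were compared with limma 3.58.1 in R 4.3.3, over probes with at least 3 values per slide, and the script was tested on simulated data. Python 3.11.15 was used for the rest. The genes and lists were chosen with earlier results of these data known. Named were the listed neuropeptides, 2 to 4 genes per list with its highest and lowest median, and for each neuropeptide the gene of highest Pearson r.

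Alternatives were a further loess (span 0.3), the deposited log ratio, the deposited table, median centring, normexp with an offset of 50, subtraction with a floor of 0.5 and the same offset, all probes of a gene, outlier spots kept, other thresholds and flags, and each array left out. Normexp started from the median signals, and both it and the floor subtraction were followed by the loess.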

Additional observations from a re-analysis of the deposited data

Results flagged for a closer look

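Of 18 sets of 10 values, the ratio and the Cy-5 level of each of the 9 probes, 4 held an array whose gap to the next was wide for the range of the set by Dixon's test. Chance gives about 1 in 20 for independent sets. These sets share arrays and the share over all probes was not counted, so no excess is read from the 4. The Npy ratio of C10-434 (5.75), the Sst ratio of C10-434 (5.06) and the Tac1 ratio of C10-434 (7.05) each stood above the other 9 arrays. The Npy Cy-5 level of C10-423 (1.42) stood below them. The ratios of C10-434 share 1 dim array, and for Npy and Sst the Cy-3 level was the lowest of the arrays there while the Cy-5 level was not the highest. The Cy-3 signal of Tac1 on C10-434 was not well above background, so its ratio rests on a signal that was not measured, and its bound there was 6.11. With backgrounds subtracted with a floor and an offset of 50, C10-434 no longer stood apart for Npy (4.64, next 4.25) or Tac1 (5.15, next 5.14) but still did for Sst (4.99, next 4.43). Under normexp Dixon's test flagged C10-434 for none of these 3 genes. For Sst it was still highest there (4.84, next 4.34), while C10-413 widened the range with a low value of 3.00.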

How the results depend on the processing

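The count of 7 neuropeptides above 1 on all arrays held at 7 under a further loess, the deposited log ratio, the deposited table, median centring, subtraction with a floor, outlier spots kept, all probes of a gene and with each array left out, and was 8 with a threshold of 0. It dropped to 2 (Sst and Cck) under normexp. There C10-413 had ratios of 0.15 to 0.86 for Npy, Vip, Tac1, Cartpt, Nts and Cort, and without C10-413, a choice made after seeing the data, the count was 6. It was 7 without C10-413 and C10-415 and stayed at 2 without C10-434. No median ratio changed sign under any setting. Of the 8 medians, 5 moved by more than 1 SD of the 10 ratios under normexp and 3 under subtraction with a floor, where Vip stood at 4.14, Tac1 at 4.86 and Cartpt at 4.82. In the slide comparison 0 of 9 neuropeptide probes passed under every setting run. The count over all probes was 31, 71 among 20022 probes detected in Cy-5, 2690 on the Cy-5 level, and 0 to 18 with an array left out (18 without C10-423, 2 without C10-415, 0 without any of the other 6). No paired analysis was possible because the arrays were assigned to no group. Signal over background limits the Cy-3 side of Vip most, as well as that of Tac1 and Cartpt on C10-434.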

Other observations

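The Cy-5 level of Cartpt was lowest on the same 3 arrays on both of its probes. These arrays were picked from the values themselves, and both probes read the same RNA, so the grouping was not tested. For A_52_P208649 the level was 1.62 on C10-425, 1.39 on C10-434 and 1.65 on C10-437. On the other arrays it was 2.63 on C10-413, 2.48 on C10-415, 2.19 on C10-416, 2.18 on C10-417, 2.29 on C10-423, 2.45 on C10-424 and 2.66 on C10-435. The probe A_51_P416152 put the same 3 arrays lowest, at 1.20, 1.17 and 1.23 in that order, with the others between 1.74 and 2.20. These arrays come from 2 slides, and the ratio of Cartpt did not set them apart in this way on either probe. The list of 10 hypothalamic neuropeptides deviated from its gene medians by -0.27 on C10-425, -0.25 on C10-434 and 0.01 on C10-437. The choroid plexus list deviated by -0.15, -0.87 and -0.04 on the same arrays. Their relation to Cartpt was not tested.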
